A study of Homo sapiens with 47 samples.

Results

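The cells were HEK293, a long-established human line derived from embryonic kidney and carrying adenovirus E1A and E1B genes, measured as 47 single cells of 1 run. The 24 cells described are the 12 with the highest and the 12 with the lowest share of transcripts from genes switched on at the G1/S transition, when a cell commits to copying its DNA. They were chosen by the summed unique molecular identifiers (UMIs, each a tag for 1 captured transcript) of PCNA, MCM2, MCM4, MCM5, MCM6, GINS2, UNG, FEN1, CDC6, CCNE2, SLBP and DTL, divided by all endogenous UMIs of the cell. The other 23 cells lie between them. Every cell had the same line, medium with glutamine and fetal calf serum, Fluidigm C1 lysis and pooled library, with no treatment, sort or synchronisation named in the labels. The labels name no separate cultures, so each group counts as 1 sample. No test was therefore run between the groups, intervals cover counting error only, and the spread given is that between cells.

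Entry into S phase is driven by cyclin-CDK activity, which removes the Rb proteins from E2F transcription factors and so allows genes of DNA replication to be transcribed. The adenovirus protein E1A binds Rb proteins directly, so the line is known for weakened control of this step. Mitotic genes are repressed early in the cycle and come on in G2, many through the CHR element (cell cycle genes homology region) and CCAAT boxes of their promoters. In 5'-selective libraries such as these, each UMI marks a captured 5' end.

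Because both sets of genes are known for promoter control, stretches upstream of a few of the genes described below are shown, from RefSeq promoters of build GRCh38.p14, 5' to 3' on the strand of the gene. The deposited counts were made on another build, and the sequences serve only as the genes' context. In the first 4, capitals mark an E2F motif (TTCCCGC or TTGGCGC, on either strand). They are from the rule genes PCNA (chr20:5126650-5126706, minus strand), MCM6 (chr2:135876501-135876619, minus strand) and DTL (chr1:212035615-212035747, plus strand), and from MCM7 (chr7:100101553-100101609, minus strand), which the rule did not use.
PCNA: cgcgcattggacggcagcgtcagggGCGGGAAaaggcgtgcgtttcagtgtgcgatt
MCM6: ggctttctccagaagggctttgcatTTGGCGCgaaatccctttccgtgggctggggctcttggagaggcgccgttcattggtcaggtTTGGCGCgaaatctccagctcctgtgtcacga
DTL: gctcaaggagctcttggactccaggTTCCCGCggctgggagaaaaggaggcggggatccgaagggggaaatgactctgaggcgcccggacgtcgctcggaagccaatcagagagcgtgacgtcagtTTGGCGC
MCM7: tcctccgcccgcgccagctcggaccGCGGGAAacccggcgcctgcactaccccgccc

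The next 4 are mitotic genes that were lower in the G1/S-high cells, with the CHR letters TTTGAA, on either strand, in capitals. They are from PLK1 (chr16:23678835-23678888, plus strand), CDC20 (chr1:43358778-43358848, plus strand), CKS2 (chr9:89311141-89311194, plus strand) and DEPDC1 (chr1:68497083-68497134, minus strand). The last, from CCNB1 (chr5:69167038-69167124, plus strand), has CCAAT in capitals.
PLK1: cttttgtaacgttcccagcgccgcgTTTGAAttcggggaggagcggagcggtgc
CDC20: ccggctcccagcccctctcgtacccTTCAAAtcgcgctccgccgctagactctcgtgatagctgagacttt
CKS2: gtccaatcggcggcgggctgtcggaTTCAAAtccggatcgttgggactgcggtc
DEPDC1: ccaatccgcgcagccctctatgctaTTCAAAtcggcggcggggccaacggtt
CCNB1: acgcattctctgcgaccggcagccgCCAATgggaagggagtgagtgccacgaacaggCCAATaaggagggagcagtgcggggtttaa

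The 12 G1/S genes held 0.137% to 0.234% of endogenous UMIs in the high cells (median 0.162%) and 0.0464% to 0.0915% in the low cells (median 0.0722%). Cell 3 was the highest, with 130 of 55664 UMIs, and cell 55 the lowest, with 28 of 60289. Cell 50, the last of the high cells, had 0.137% (exact binomial interval 0.113% to 0.164%, 95%), and cell 86, just outside, had 0.136% (0.107% to 0.169%). At the other end cell 22 had 0.0915% (0.0674% to 0.121%), and cell 15, just outside, had 0.0922% (0.0656% to 0.126%). The intervals of neighbouring cells overlap widely, so membership near both edges is uncertain.

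**Figure D1:**
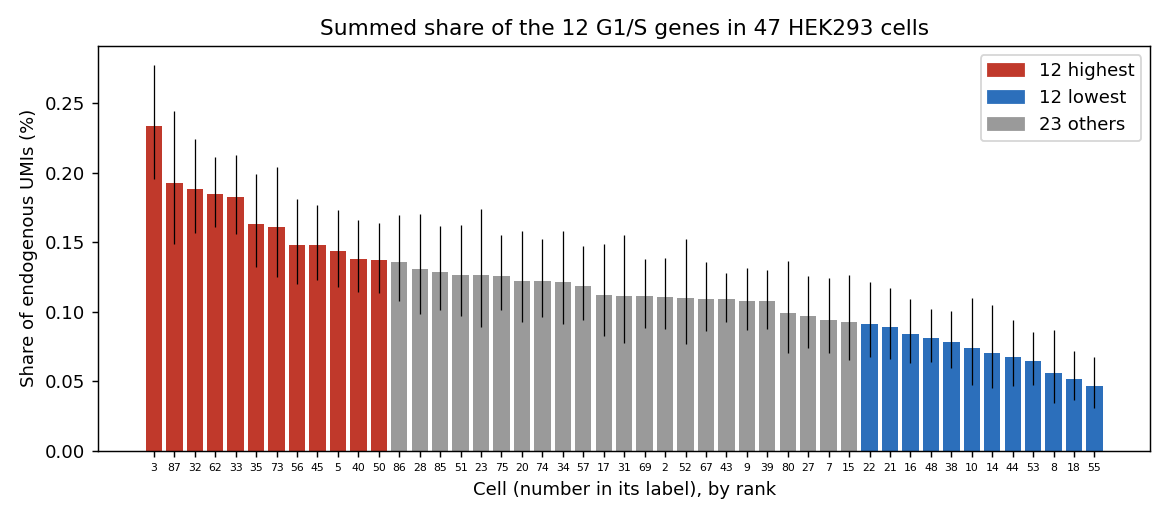
Summed share of the 12 G1/S genes in each of 47 cells, as a percentage of endogenous UMIs, ordered by rank, with exact binomial 95% intervals as error bars. The high cells (red) span 0.137% to 0.234% and the low cells (blue) 0.0464% to 0.0915%, and the intervals of cells near each edge overlap.

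The genes that chose the cells are given as a description. Levels here and below are UMIs per 10000 endogenous UMIs of a cell, and a fold is the ratio of the 2 group means. PCNA, the sliding clamp of the DNA polymerases, had a level of 1.39 to 4.85 in the high cells (median 2.90) and 0.663 to 2.10 in the low cells (median 1.18). CDC6, which loads the MCM helicase onto origins, had the largest fold of the 12, 3.66, and UNG, which removes uracil from DNA, the smallest, 1.64. MCM5, a helicase subunit, was 3.07-fold higher, with levels of 0.287 to 1.85 against 0 to 0.792. CCNE2, which encodes cyclin E2, was too sparse to describe a cell: it had UMIs in 7 of 12 high and 5 of 12 low cells, 27 and 11 in all. Of the 12 genes, 10 to 12 had a UMI in each high cell and 6 to 12 in each low cell.

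The groups also differed in depth. The high cells had 34852 to 115303 endogenous UMIs (median 70561) and the low cells 32527 to 91317 (median 58279), so the ranges overlapped over most of their width. Spike-in UMIs, from synthetic RNA added in equal amount to each cell, ranged from 3190 to 4640 (median 3694) and from 2631 to 4360 (median 3219). Genes detected had a median of 7137 in the high and 6721 in the low cells. With every cell thinned to 29325 UMIs the origin licensing and firing genes described next were 1.62-fold higher in the high cells and the G2/M genes 1.35-fold lower, against 1.59-fold and 1.32-fold without thinning. Total UMIs per cell were not otherwise adjusted for. A count of 0 in 1 of these cells allows a level of up to 0.260 to 0.922, which is 3 UMIs of the total.

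Genes outside the rule with an average of at least 3 UMIs per cell over the 47 cells are called measured, and there were 2771. Of these, 407 differed by at least 1.5-fold, of which 263 (9.49% of those measured) were higher in the G1/S-high cells and the rest (5.2%) lower. The median log2 fold of all these genes was 0.05. Of the 263 higher genes 26 were in the 8 lists of replication, cell cycle and histone genes, and of the lower genes 12. Among all 2771 measured genes these lists held 71 replication, 36 G2/M and 5 histone genes. Levels per spike-in UMI gave 376 higher and 84 lower genes, which is 81.7% higher among those past the fold against 64.6% with levels per endogenous UMI.

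**Figure D2:**
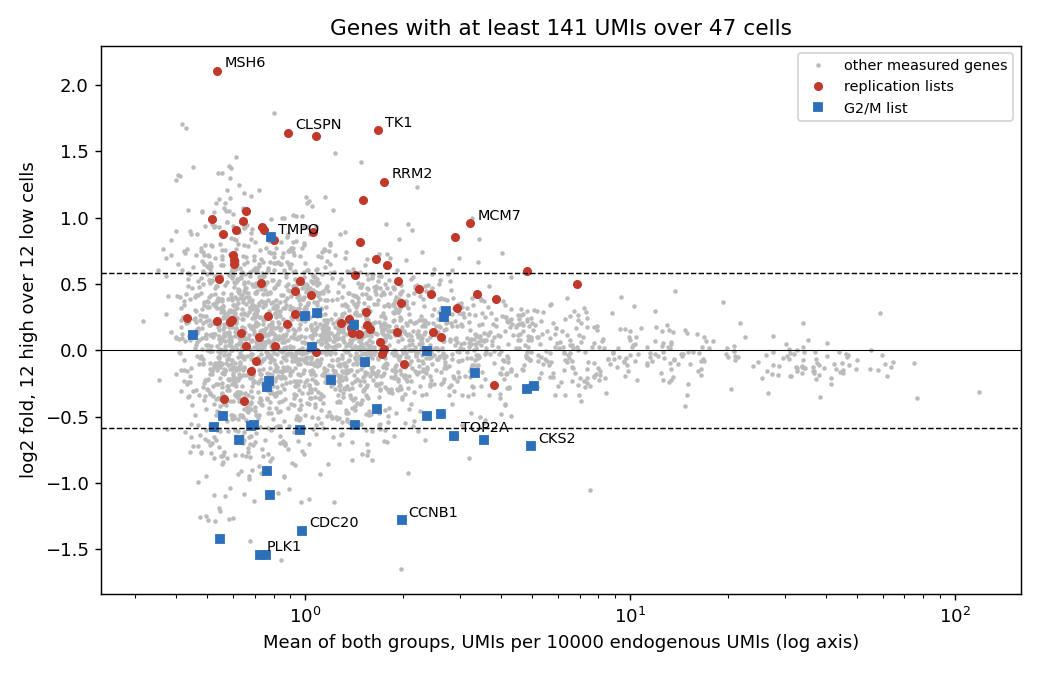
Log2 fold of the 12 high over the 12 low cells against the mean level of both groups (log axis, UMIs per 10000) for 2771 genes outside the rule. Dashed lines mark 1.5-fold, which 407 genes pass, 263 of them upward, with most replication genes (red) above 0 and most G2/M genes (blue) below it.

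Replication genes that the rule did not use were higher in the G1/S-high cells. Summed over 143 genes of 6 lists (origin licensing, replication fork, nucleotide supply, chromatin assembly, E2F and cyclins, DNA repair), with TOP2A and CBX5 left out because the G2/M list holds them too, the level was 126 to 161 in the high cells (median 143) and 75.9 to 120 in the low cells (median 107), 1.38-fold higher in the mean. The lowest high cell was above the highest low cell. Of 71 members measured, 24 were at least 1.5-fold higher and 0 at least 1.5-fold lower, beside 9.49% and 5.2% of all genes, and 62 had a fold above 1. Their median log2 fold was 0.39, beside 0.05 for all genes. The same cells and totals enter both the rule and these sums, so the separation describes these cells and is not independent support for the groups.

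The list of origin licensing and firing separated the groups without overlap. Licensing and firing load and switch on the MCM helicase, but the list also holds genes that act at the fork, such as CLSPN. The summed level of its 25 genes was 18.7 to 25.2 in the high cells (mean 21.8 ± 2.08, SD, n = 12) and 10.1 to 17.4 in the low cells (13.6 ± 2.20), a fold of 1.59, and no low cell reached the lowest high cell. Of 14 members measured, 7 were at least 1.5-fold higher (CLSPN, TOPBP1, MCM7, CDC45, MCM3, MCMBP and ORC6) and 0 lower, beside 9.49% and 5.2% of all genes. With the rule genes weighted equally CDC45, MCM3 and TOPBP1 were under 1.5-fold (MCM3 1.06 and TOPBP1 1.12), and ORC6 was so with 1 cell left out. MCM7, a subunit of the same helicase ring as the rule genes, had a level of 2.33 to 6.89 in the high cells (median 4.13) and 1.15 to 3.55 in the low cells (median 2.08). Of the 12 high cells, 8 were above every low cell for MCM7, and the fold was 1.94. CLSPN, which encodes the checkpoint mediator claspin at the fork, had 120 UMIs in the high and 27 in the low cells, with levels of 0.539 to 2.67 and 0 to 1.79. Its ratio of summed UMIs was 3.62 (interval 2.37 to 5.72, counting error only), and its ranges overlapped. GMNN, which encodes the licensing inhibitor geminin and was the most abundant member, was 1.34-fold higher with overlapping ranges (2.44 to 6.03 against 0.992 to 5.33).

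Genes of nucleotide supply were 1.46-fold higher in summed level, 17.6 to 32.3 in the high cells (median 28.2) and 14.4 to 24.7 in the low cells (median 18.1). Of 12 members measured, 5 were at least 1.5-fold higher and 0 lower, beside 9.49% and 5.2% of all genes. The higher ones included TK1, RRM2, MTHFD1 and DCTPP1. TK1 and RRM2 were past 1.5-fold in every setting run. TK1, the thymidine salvage kinase, had a level of 0.954 to 4.45 in the high cells (median 2.34) and 0.198 to 2.11 in the low cells (median 0.839). All 12 high cells lay above the median low cell, and the high cell had the larger level in 136 pairs of a high and a low cell (94.4% of all such pairs), the most of all genes measured that were past 1.5-fold. The fold of TK1 was 3.16, and its ratio of summed UMIs, 206 against 60, each divided by the endogenous UMIs of its group, was 2.79 (interval 2.09 to 3.79). RRM2, the regulated subunit of ribonucleotide reductase, had levels of 0.930 to 3.59 (median 2.60) and 0.166 to 2.08 (median 0.994), with 8 high cells above every low cell and a fold of 2.42. Its partner subunit RRM1 was 1.38-fold higher, 1.16 to 3.97 against 0.588 to 5.05, with the highest level in a low cell. DTYMK, which makes thymidine diphosphate, had a fold of 1.01.

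**Figure D3:**
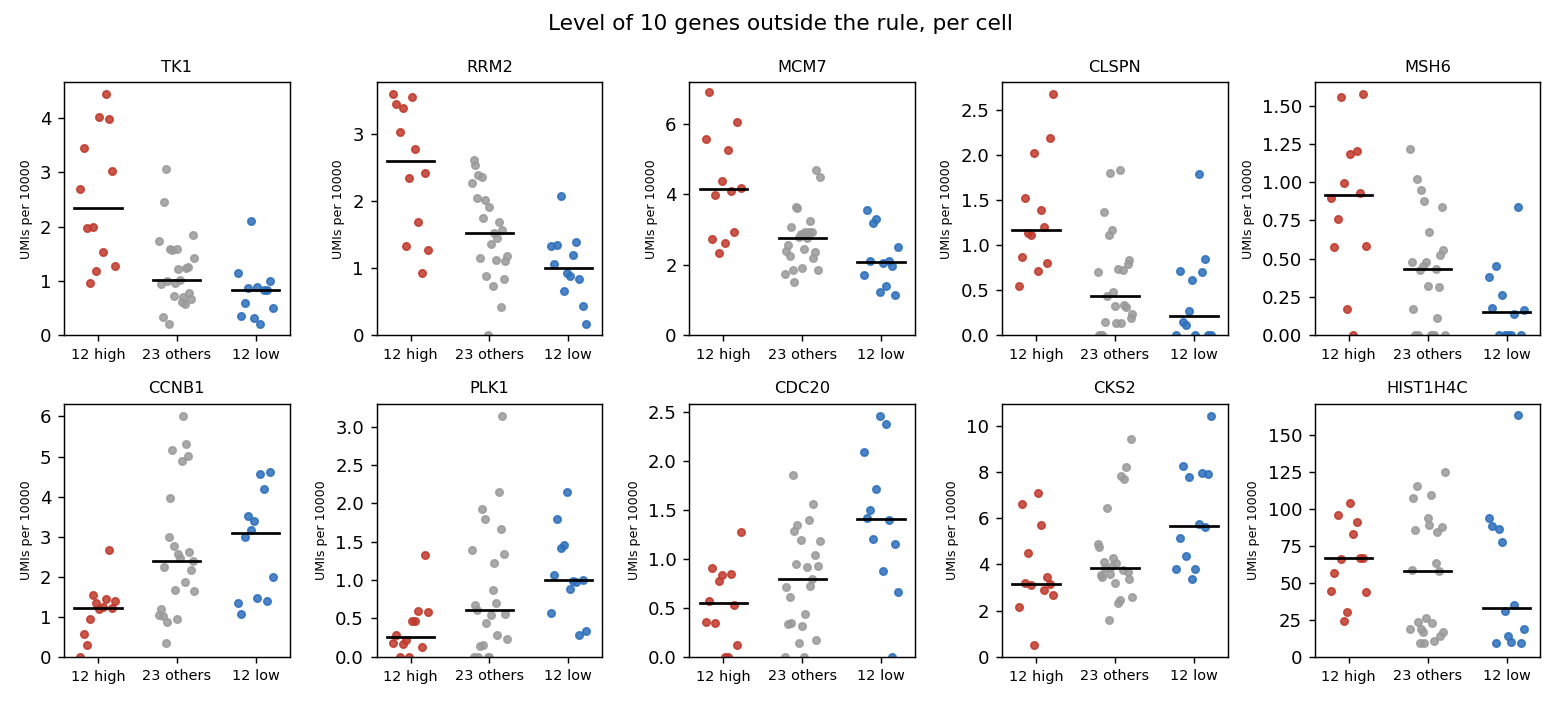
Levels of 10 genes outside the rule in each cell (UMIs per 10000 endogenous UMIs, points), with the group median as a line, for 12 high, 23 other and 12 low cells. TK1 reaches a median of 2.34 in the high and 0.839 in the low cells, CCNB1 has 1.22 and 3.08, and HIST1H4C spans both groups.

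At the replication fork the members were uneven. The 31 genes summed to 31.7 to 52.8 in the high cells (median 42.8) and 20.9 to 44.02 in the low cells (median 37.02), a fold of 1.19 with 4 high cells above every low cell. Of 18 members measured, 3 were at least 1.5-fold higher (RNASEH2A, KIAA0101 and RFC4) and 1 lower (TOP2A), shares of 16.7% and 5.56%, near the 9.49% and 5.2% of all genes. RFC4 and TOP2A were under 1.5-fold in some of the runs that left out 1 cell. RNASEH2A, the catalytic subunit of an enzyme that removes RNA from RNA-DNA hybrids, had levels of 0.696 to 4.30 and 0.110 to 1.65, a fold of 2.19. KIAA0101, which encodes a PCNA-binding protein, had levels of 1.46 to 5.86 (median 4.02) and 0.307 to 3.77 (median 2.00), a fold of 1.81. The single-strand binding subunit gene RPA2, the most abundant member, was 1.41-fold higher, while RPA3 of the same complex had a fold of 0.835, which turned to 1.12 with 8 and 8 cells. TOP2A, a topoisomerase that is also on the G2/M list, was 1.56-fold lower.

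Genes of chromatin assembly and related chromatin functions were 1.38-fold higher, 17.3 to 29.8 in the high cells and 13.5 to 21.7 in the low cells. Of the 12 high cells, 10 were above every low cell. Of 13 measured, 3 were at least 1.5-fold higher (ASF1B, EZH2 and HELLS) and 0 lower, beside 9.49% and 5.2% of all genes. Of these 3 only ASF1B was so in every setting run. The histone chaperone gene ASF1B had levels of 0.232 to 3.41 (median 1.71) and 0 to 1.35 (median 0.515), a fold of 3.07. DNA repair and checkpoint genes were 1.52-fold higher, 10.6 to 18.8 against 6.17 to 15.0. Of 8 members measured, 4 were at least 1.5-fold higher and 0 lower, beside 9.49% and 5.2% of all genes. Among the 4 were MSH6, RAD51AP1 and USP1. RAD51AP1 and USP1 were under 1.5-fold with the rule genes weighted equally. MSH6, a mismatch recognition subunit, had the largest fold of these members, 4.31, from 80 UMIs in the high and 13 in the low cells, so its interval is wide (ratio of summed UMIs 5.01, 2.77 to 9.82).

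Cyclins, CDKs, inhibitors, E2F and Rb family genes summed to 12.1 to 20.1 in the high cells and 7.05 to 15.7 in the low cells, a fold of 1.25. Of 29 with a row 8 were measured, of which CDK2, the partner of cyclin E, and TFDP2, a partner of E2F, were past 1.5-fold (1.98 and 1.87) and 0 were lower. These 2 were 25% of the 8, beside 9.49% of all genes higher and 5.2% lower. CDK2 and TFDP2 were both under 1.5-fold with 16 and 16 cells. CDK4, CDKN2A and CCND1, which act earlier in G1, had folds of 1.10, 1.07 and 1.02.

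**Figure D4:**
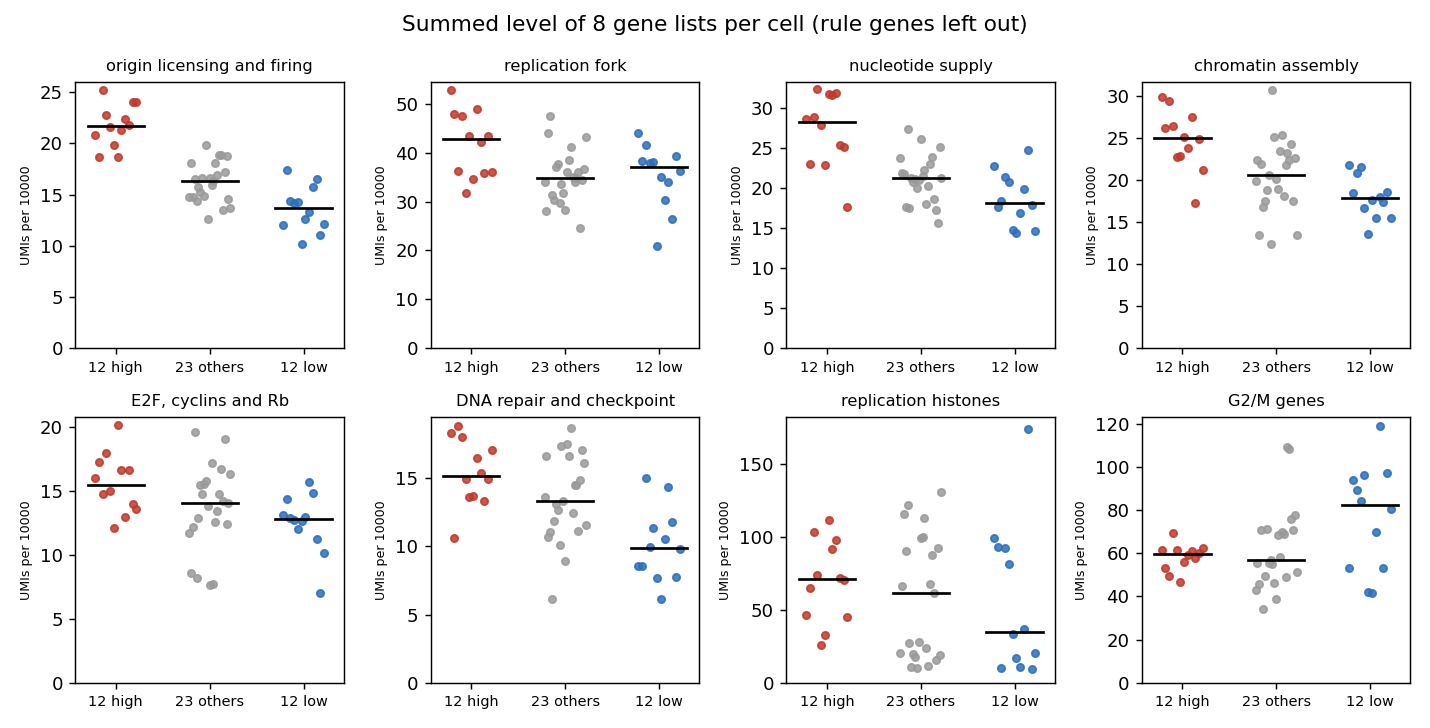
Summed levels of 8 gene lists in each cell (UMIs per 10000 endogenous UMIs, rule genes left out), with group medians as lines, for the 12 high, 23 other and 12 low cells. Origin licensing and firing separates the high (18.7 to 25.2) from the low cells (10.1 to 17.4), whereas replication histones and G2/M genes spread most among the low cells.

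Mitotic genes were lower in the G1/S-high cells, and most uneven among the low cells. The 59 genes of the G2/M list summed to 46.7 to 69.1 in the high cells (median 59.7, SD 6.09) and 41.4 to 119 in the low cells (median 82.3, SD 24.6), 1.32-fold lower in the high cells in the mean. Of the 12 low cells, 8 were above every high cell. The other 4 were cells 8, 10, 14 and 22, with 53.3, 42.1, 41.4 and 53.4, within or below the range of the high cells. The low group therefore holds cells with many and cells with few mitotic transcripts. Cells 8, 10 and 14 also had the fewest endogenous UMIs of the low group (35675, 32527 and 34030), whereas cell 22 had 52477. Over all 47 cells the summed G2/M level had a rank correlation (rho) of 0.44 with endogenous UMIs, and 0.28 over the 23 other cells. The part of depth in this split was not tested. Of 36 members measured, 12 were at least 1.5-fold lower (33.3%, beside 5.2% of all genes) and 1 higher (2.78%, beside 9.49%). Their median log2 fold was -0.48. Of the 12, 8 were at least 1.5-fold lower in every setting run, all but CCNB2, MKI67, TOP2A and UBE2C.

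The 5 largest folds on that list were those of AURKA, PLK1, CENPE, CDC20 and CCNB1. CCNB1, which encodes cyclin B1, had levels of 0 to 2.66 in the high cells (median 1.22) and 1.07 to 4.61 in the low cells (median 3.08). No high cell reached the median low cell and 7 low cells were above every high cell, a fold of 2.43 lower in the high cells. PLK1, a mitotic kinase, had levels of 0 to 1.33 (median 0.254) and 0.280 to 2.15 (median 1.00), a fold of 2.91 lower from 33 and 77 UMIs. CDC20, the activator of the anaphase-promoting complex, had medians of 0.553 and 1.41 and was 2.56-fold lower. AURKA, a spindle kinase, was 2.92-fold lower and CENPE, a kinetochore motor, 2.68-fold lower, each at a mean level near 1 UMI per 10000 or below. The abundant CKS2, a CDK-binding subunit, was 1.65-fold lower, with levels of 0.504 to 7.10 (median 3.17) and 3.38 to 10.4 (median 5.68). UBE2C, which passes ubiquitin to mitotic proteins, was 1.60-fold lower in the mean, yet its low cells ran from 0.307 to 9.95 around the 1.23 to 4.48 of the high cells. TMPO, which encodes a nuclear envelope protein, was the member at least 1.5-fold higher in the G1/S-high cells, 1.81-fold, but under 1.5-fold with 16 and 16 cells.

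Histone H4 mRNA, made during S phase, followed the grouping only in part, with overlapping levels. HIST1H4C had levels of 24.5 to 104 in the high cells (median 66.4) and 9.07 to 163 in the low cells (median 32.97), so 5 low cells were below every high cell, 6 within their range and 1 above. That highest cell was cell 8, which ranked 45 of 47 by its share of the 12 G1/S genes. The fold of the 23 replication histones was 1.23, and 1.52 without cell 8. All high cells thus held at least 24.5 UMIs of HIST1H4C per 10000. Without HIST1H4C the other replication histones were 1.44-fold higher, 1.28 to 8.64 against 0.576 to 10.9. Of 4 of them measured, HIST1H1E was past 1.5-fold (1.52) and 0 were lower, beside 9.49% and 5.2% of all genes. The fold of HIST1H1E was as low as 1.39 with 1 cell left out and 1.23 over the other settings. HIST1H4C has near-identical copies and many histone mRNAs lack poly(A) tails, so its counts are uncertain to that extent.

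The 15 genes named in each direction, those past 1.5-fold with the most pairs of cells in their direction, came only in part from the cell cycle lists. Of the 15 higher, 7 were members (TK1, MCM7, RRM2, CLSPN, RNASEH2A, MSH6 and ASF1B) and of the 15 lower 4 (PLK1, CCNB1, CDC20 and CKS2). Beside this, the lists held 71 replication, 36 G2/M and 5 histone genes among the 2771 measured. The 8 others among the higher genes were PRKDC, NCAPD3, DDX24, NOL8, CRABP2, FKBP3, NTPCR and SNHG1. PRKDC, the catalytic subunit of DNA-dependent protein kinase, is transcribed divergently from the rule gene MCM4, and had levels of 2.67 to 5.91 (median 4.51) and 0.794 to 3.60 (median 2.34), with 9 high cells above every low cell. NCAPD3, a subunit of condensin II, had levels of 0.463 to 1.98 and 0 to 1.19, a fold of 3.46. CRABP2, a retinoic acid binding protein gene, had levels of 1.39 to 6.15 and 0.280 to 2.99, a fold of 2.36. The 11 others among the lower genes were EWSR1, DDA1, SNW1, YDJC, CYC1, COQ4, MZT2B, DEPDC1, FRA10AC1, IMMP1L and NDUFB5. EWSR1, an RNA-binding protein gene, had levels of 0.154 to 1.44 and 0.660 to 3.37, a fold of 2.21 lower. CYC1 and NDUFB5, which encode subunits of respiratory complexes III and I, were 1.59-fold and 1.51-fold lower, and MZT2B, of the gamma-tubulin complex, 1.75-fold lower. In every setting run, 10 of the 15 higher and 10 of the 15 lower genes stayed past 1.5-fold. The others were FKBP3, NOL8, NTPCR, PRKDC and SNHG1 (PRKDC 1.26 and NOL8 1.40 with the rule genes weighted equally), and CYC1, DDA1, FRA10AC1, MZT2B and NDUFB5.

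The 23 cells between the groups entered the minimum of UMIs that a gene had to reach, but neither its fold nor its ranking. Across them the rank correlation of a gene with the share of the 12 G1/S genes had a median rho of -0.03 over all 2771 genes, and their middle range was -0.17 to 0.13 between quartiles. Among the 15 higher genes 7 had a rho above 0, with a median of -0.04. Those with the largest were RRM2 (0.66) and RNASEH2A (0.36), while PRKDC (-0.39), NOL8 (-0.34) and MCM7 (-0.31) went the other way. Among the 15 lower genes 4 had a rho above 0, with a median of -0.19, and CCNB1 had -0.39, PLK1 -0.28 and CDC20 -0.24. The 143 replication genes had a summed rho of -0.09 in these 23 cells against 0.76 over all 47, and the G2/M list -0.53 against -0.35. In the middle of the range the replication genes thus showed no rising order with the share, where shares lay between 0.0922% and 0.136% and the intervals of single cells overlapped. These cells share 1 library and run, and the values carry no p.

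**Figure D5:**
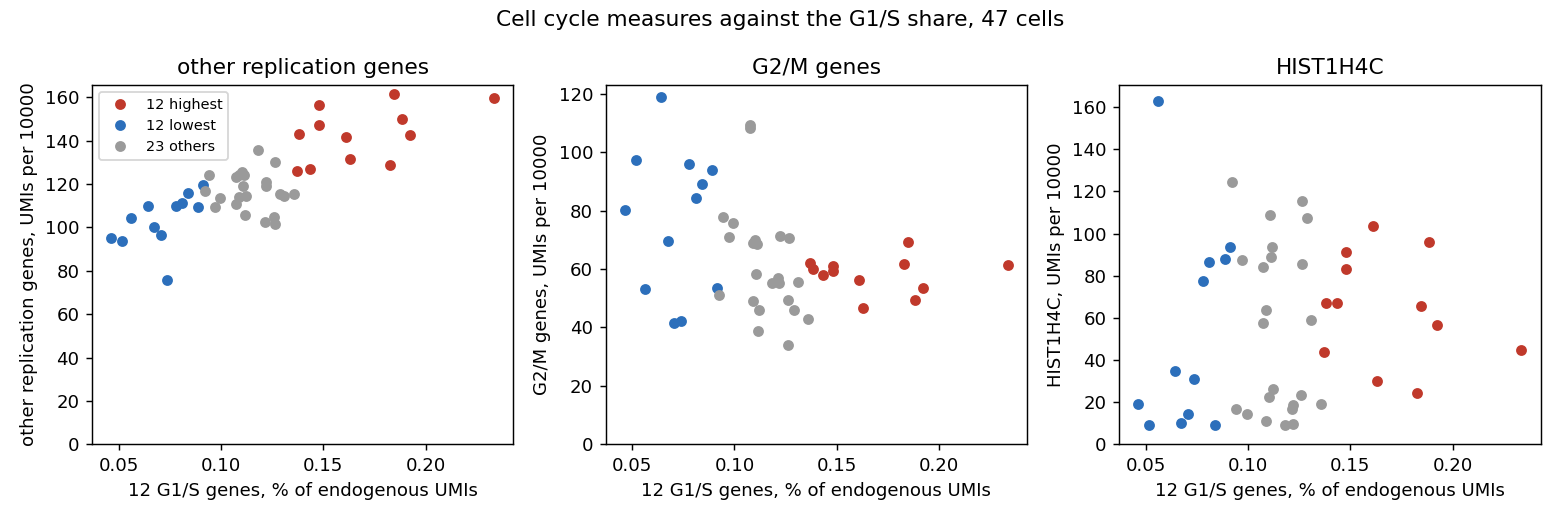
Summed level of 143 other replication genes (left), of the G2/M list (middle) and of HIST1H4C (right), in UMIs per 10000 endogenous UMIs, against the share of the 12 G1/S genes, 1 point per cell. High cells lie at 126 to 161 on the left and low cells at 75.9 to 120, and the 23 grey cells have a rho of -0.09, and on the right cell 8 stands at 163.

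Promoter letters were counted in the 250 bases before each RefSeq start. The E2F motif was in 5 of 9 rule genes with an entry and in 30.4% of 23 origin licensing genes, 8 of 25 fork genes, 21.4% of 14 nucleotide supply genes and 27.3% of 22 repair genes, beside 14.3% of 2279 measured genes and 7.95% of all 27305 promoters. It was in 2 of 14 of the 15 higher genes with an entry (14.3%), MCM7 and NTPCR, which is the share of measured genes. The CHR letters were in 26 of 50 G2/M promoters and 5 of 11 of the 15 lower genes (45.5%). This stands beside 8.21% of measured genes and 13.6% of all promoters. Replication histone promoters also held the CHR letters, in 6 of 20. CCAAT, on either strand, was in 70.0% of G2/M promoters. Of the genes with an entry, it was in 71.4% of the 15 higher and 63.6% of the 15 lower. It was in 16 of 20 replication histone, 58.8% of chromatin assembly, 59.1% of repair and 56.5% of origin licensing promoters. The share of measured genes was 39.5%, and that of the E2F, cyclins and Rb list 34.8%. A match describes the letters of this window only.

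Most lists outside the cell cycle had summed folds near 1. Cytosolic ribosomal protein genes had 0 of 81 measured members past 1.5-fold in either direction, beside 14.7% of all genes. Abundant genes passed the fold less often: with a minimum of 10 UMIs per cell on average, 2.63% of genes were higher and 1.68% lower. The summed fold of the ribosomal protein genes was 0.934, from 2369 to 2744 in the high and 2546 to 3106 in the low cells. The medians were 2560 and 2648, and the fold was 1.01 per spike-in UMI, so no direction is read from it. Mitochondrial mRNAs had a fold of 0.892, with 13 of 13 below 1, and the mitochondrial ribosomal RNAs a fold of 0.796, 124 to 215 against 97.6 to 368. The part of mitochondrial transcripts in the other differences was not tested. Nuclear respiratory subunits (0.978), glycolysis (1.03), the CCT chaperonin (1.05), splicing (1.02), p53 target (1.06) and nucleolar genes (1.04) had summed folds close to 1. The summed fold of heat-shock genes was 1.14, with 0 of 10 measured members past 1.5-fold, beside 14.7% of all genes. All 12 high cells were above the median low cell in that sum, and the ranges overlapped. MT-RNR2, MALAT1, MYC, HSPA1B and ID2, which define other contrasts among these cells, had folds of 0.805, 0.747, 1.25, 0.683 and 0.912, all with overlapping ranges. The direction turned for ID2 without cell 38 (1.82), for MALAT1 in cells numbered up to 48 (1.16) and for MYC with the rule genes weighted equally (0.898).

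Markers of other cell types were also read. Of the kidney epithelium markers 6 of 10 had UMIs, with summed levels of 0.443 to 2.62 in the high and 0.533 to 4.92 in the low cells. Of these KRT18 was the only one measured, and was 2.21-fold lower in the high cells. Neuronal markers, 6 of 10 with UMIs and led by UCHL1 and NEFM, had summed levels of 1.16 to 9.07 and 1.91 to 11.9. NEFL had a fold of 1.35 from 23 and 12 UMIs. Fibroblast markers had 3 UMIs and blood and immune markers 4 in all 24 cells. The part of these markers in the differences was not tested.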

How the data were processed

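The authors deposited raw UMI counts, whole numbers for each gene in each cell. The submitters' processing notes list cutadapt 1.2.1 and STAR 2.4.0a with builds hg19 and GRCh37, while annotation, UMI collapsing, strand and multimapping are not given in the sources used here. All 47 columns matched a label. A repeated header row (0.0602% of all values) and 78 spike-in rows were left out of totals. Counts were divided by the endogenous UMIs of the cell, from 29325 to 138647, and averaged over the 12 cells of a group. Without recorded strand, overlapping genes cannot be told apart. Doublets were not called. Genes averaging at least 3 UMIs per cell were measured, and a fold of 1.5 was the threshold.

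The members and lists were chosen with earlier results of these data known. Named genes were the 15 per direction past 1.5-fold with the largest share of pairs of cells in their direction, then the 4 most abundant and all members past 1.5-fold of 8 cell cycle lists, the rule genes and 7 genes of crossing contrasts. Some genes that this rule names are not reported here. Single genes named from other lists were chosen after their values were seen, and so were the CHR motif and the promoters shown. The fold calculation was tested on simulated counts with counting error only and no spread between cells beyond depth. Alternatives were run with TMM (edgeR 4.0.16), DESeq2 1.42.0 size factors, spike-in scaling, summed UMIs, thinning, other group sizes, equal gene weights and cells left out. Python 3.11.15, pandas 2.3.3, scipy 1.17.1 and R 4.3.3 were used.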

Additional observations from a re-analysis of the deposited data

How the results depend on the processing

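The 8 cell cycle list folds kept their direction in all 10 settings and 24 runs that each left out 1 cell. With the 12 rule genes weighted equally, which kept 9 of the 12 high and 8 of the 12 low cells, the fold was 1.38 for origin licensing and firing and 1.202 for DNA repair. In the same setting the folds of GAR1 and GNL3 were 0.945 and 0.995, and that of DDIT4 0.774 (0.788 with 16 and 16 cells), against main folds of 1.61, 1.53 and 1.52. The cause was not tested. Leaving out 1 cell gave 252 to 301 higher and 136 to 164 lower genes. Counts of higher and lower genes were 400 and 253 with 8 and 8 cells, 171 and 124 with 16 and 16, 1093 and 690 with a minimum of 1 UMI per cell on average, 25 and 16 with 10 per cell, 3121 and 2533 with no minimum but a UMI in each group, and 53 and 28 at a fold of 2. Per spike-in UMI 84 genes were lower, and the median log2 fold of all genes moved from 0.05 to 0.16. In cells numbered up to 48 (7 high, 10 low) the fold was 1.64 for origin licensing, 1.03 for replication histones and 1.27 lower for G2/M genes. The 5 high and 2 low cells above 48 were too few for a value of their own. No paired analysis was possible because the labels name 1 group and no replicate number that pairs cells. At the minimum a gene has 3 UMIs per cell, which limits single-cell levels.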

Other observations

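Of 8 measured genes of the ATF4 and stress response list, 3 were at least 1.5-fold higher (HSPA5, XBP1 and DDIT4) and 0 lower, and of 6 measured MYC and immediate-early genes 3 (FOSB, IER2 and DUSP1) and 0, beside 9.49% and 5.2% of all genes. These genes are named after their values were seen. Of the members 5 of 8 and 4 of 6 had a fold above 1, and the list folds of 1.17 and 1.28 were 0.942 and 0.977 with the rule genes weighted equally. HSPA5, the main chaperone of the endoplasmic reticulum, had levels of 1.66 to 4.54 in the G1/S-high cells (median 2.41) and 0.280 to 2.67 in the low cells (median 1.52), a fold of 1.88 that ranged from 1.29 to 2.29 over the settings. FOSB had 51 UMIs in the high and 17 in the low cells, a fold of 2.60 that was 1.39 with the rule genes weighted equally, and its levels overlapped.

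Of the nuclear long non-coding RNAs, NEAT1 had a fold of 2.23, with levels of 0.152 to 4.20 against 0 to 1.33, and 1.74 to 3.23 over the settings. The 5 RNAs of that list summed to a fold of 0.820, which turned to 1.27 in cells numbered up to 48. The cholesterol synthesis list summed to a fold of 1.10. Of 9 measured members 2 were at least 1.5-fold higher (22.2%) and 0 lower, beside 9.49% and 5.2% of all genes. The 2 were IDI1 and INSIG1. Their folds of 1.56 and 1.52 were 1.18 without cell 56 and 1.16 without cell 32.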
